A study of Mus musculus with 4 samples.

Results

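The genes described here are 36 markers of dividing cells, 18 whose transcripts accompany DNA replication in S phase and 18 that accompany G2 and mitosis. They were chosen by symbol, and all 36 were found among the 32285 genes of the count matrices. Single-cell RNA was collected from mouse embryos of the Swiss-Webster strain at E10.5 (34 to 36 somites), from the otic vesicle, which forms the inner ear, its cochleovestibular ganglion and the tissue next to them. Embryos of both groups carried Pax2-Cre and the reporter Rosa26-GFPf/+. The conditional knockout (cKO) group had in addition Tbx2f/f and Tbx3f/f, and the control group had neither. Only living GFP-positive cells, the Pax2-Cre lineage, were sorted and captured on the 10x 3′ platform. Each group had 2 libraries, drawn from 3 control and 2 cKO embryos with vesicles pooled. How embryos were divided among libraries is not stated, so the spread behind each p-value is that between libraries and may be technical.

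Dividing cells copy their DNA in S phase with the MCM helicase, the PCNA clamp and an enlarged supply of nucleotides, and they switch on these genes largely through E2F transcription factors. Genes for the spindle, the kinetochore and the mitotic kinases follow in G2 and mitosis, many of them under complexes that read CHR and CCAAT elements. In the otic vesicle, epithelial progenitors proliferate, and neuroblasts leave the epithelium, divide for a time and then stop as they mature into ganglion neurons. Tbx2 and Tbx3 encode T-box repressors that are known for effects on proliferation in several organs.

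The promoters of 4 members are printed to show these elements in the genes whose otic levels differed most between genotypes, the S members Rrm2 and Chaf1b and the G2/M members Mki67 and Plk1. Each window has 300 bases, is credited to RefSeq on GRCm38.p6 and runs 5′ to 3′ on the gene's strand. Capitals mark matches to the searched letters on either strand. Rrm2 lies at chr12:24708004-24708303 (plus strand), Chaf1b at chr16:93883651-93883950 (plus), Mki67 at chr7:135716330-135716629 (minus) and Plk1 at chr7:122159185-122159484 (plus).
Rrm2: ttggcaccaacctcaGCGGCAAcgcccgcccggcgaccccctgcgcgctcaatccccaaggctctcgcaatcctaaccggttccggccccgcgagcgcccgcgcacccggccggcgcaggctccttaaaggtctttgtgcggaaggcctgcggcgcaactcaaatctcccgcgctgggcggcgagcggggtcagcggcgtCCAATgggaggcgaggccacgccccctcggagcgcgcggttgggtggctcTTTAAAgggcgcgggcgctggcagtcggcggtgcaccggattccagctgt
Chaf1b: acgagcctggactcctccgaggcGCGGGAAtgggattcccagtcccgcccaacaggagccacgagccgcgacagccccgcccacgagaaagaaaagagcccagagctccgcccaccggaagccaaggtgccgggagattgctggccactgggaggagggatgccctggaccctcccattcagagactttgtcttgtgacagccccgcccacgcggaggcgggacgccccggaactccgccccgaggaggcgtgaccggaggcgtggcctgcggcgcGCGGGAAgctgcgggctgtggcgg
Mki67: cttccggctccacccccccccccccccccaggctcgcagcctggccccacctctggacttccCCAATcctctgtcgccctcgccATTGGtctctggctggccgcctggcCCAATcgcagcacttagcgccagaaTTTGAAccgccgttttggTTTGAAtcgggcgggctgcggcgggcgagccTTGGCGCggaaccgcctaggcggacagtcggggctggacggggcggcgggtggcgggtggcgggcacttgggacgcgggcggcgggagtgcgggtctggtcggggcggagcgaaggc
Plk1: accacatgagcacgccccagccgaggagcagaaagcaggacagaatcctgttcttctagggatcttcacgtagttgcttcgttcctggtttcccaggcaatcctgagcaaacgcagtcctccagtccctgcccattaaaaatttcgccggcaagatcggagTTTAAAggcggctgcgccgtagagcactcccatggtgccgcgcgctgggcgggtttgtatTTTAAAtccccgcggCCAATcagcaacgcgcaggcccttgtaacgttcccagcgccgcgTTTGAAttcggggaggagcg

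For E2F the letters searched were TTCGCGC, then TTGGCGC, then TTCCCGC, and lastly TTGCCGC. For CHR they were TTTGAA as well as TTTAAA, and for the CCAAT box those of its name. Both strands were searched. A CCAAT match read on the other strand (ATTGG) can share bases with the E2F letters TTGGCGC. Of the members, 32 had a promoter in the table, 16 of each set. Among the S members, 10 of 16 held an E2F match, against 4 of 16 G2/M members and 9.69% of all 27025 promoters. CHR matches were in 4 of 16 S and 14 of 16 G2/M promoters, against 27.8% of all. CCAAT matches were in 11 of 16 S and 13 of 16 G2/M promoters, against 37.9% of all. Chaf1b held 2 E2F matches and neither of the other elements, and Plk1 held 3 CHR matches, 1 CCAAT box and no E2F match. Mki67 held all 3 kinds of element, as did Rrm2. Such matches describe the letters in these windows and are not measured binding.

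The libraries held 4622 to 5340 barcodes and 106769747 to 128205192 UMIs (counted molecules), and 14399 cells were kept. Libraries shared 17 barcodes. Kept cells had a median mitochondrial share of 2.41% and 2.96% in control against 1.31% and 1.38% in cKO. In otic cells the median UMI count was 31526 and 29956 in control and 37668 and 34102 in cKO, so the mitochondrial share and the depth moved with genotype. Their part in the differences below was not tested. Thinning evens out depth in the shares and scores. The summed counts behind the calls for single members were not thinned, except in the alternatives with thinned cells, so deeper cells weigh more in them. To take depth out of shares and scores, every cell was thinned to 10000 UMIs, which left 13364 cells and set aside 1035 shallower ones. The targeted gene Tbx3 stood in otic cells at 60.4 and 56.9 CPM (counts of a gene scaled to the size of its library) in control and 24.1 and 18.7 in cKO, a log2 change of -1.46 (adjusted p = 9.58e-05, edgeR's quasi-likelihood test). Tbx2 stood at 88.7 and 95.5 CPM in control against 74.5 and 71.4 in cKO (log2 -0.34, adjusted p = 0.00686). The labels do not say which exons are deleted, and 3′ counts may lie outside them, so remaining Tbx2 reads do not check the deletion.

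Cells were clustered without 247 cell-cycle and histone genes, and clusters were named by marker lists, so that otic cells are cells that resemble otic epithelium. Each otic cluster was supported by 8 to 10 otic markers, among them Oc90, Hmx2 and Lmx1a. Each cell was scored by its UMIs from the 18 S and the 18 G2/M members. A cell with 10 or more UMIs of a set was called S-high or G2/M-high, and one that was either was called cycle-gene-high. These are ranges of a score and not observed divisions. In otic cells, 3.33% to 7.62% of a library's cells lay at 9 or 10 S UMIs, and 3.74% to 7.03% at 9 or 10 G2/M UMIs, next to the cut.

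Cell types differed widely in these scores. Neural tube neuron-like cells, which have left the cell cycle, gave the background. In them 0 of 89 cells of control 1 were cycle-gene-high, which allows a share of up to 3.37%, and the other libraries had 3.35% (control 2), 4.23% (cKO 1) and 4.17% (cKO 2). Their median depth before thinning was 16933 to 19974.5 UMIs, against 30329.5 to 38029.5 in otic cells. Mesenchyme-like cells stood at the other end, with 98.2% and 95.9% cycle-gene-high in control and 100% in both cKO libraries. Ectoderm-like cells had 54.8% and 56.0% in control and 58.0% and 62.5% in cKO. Epibranchial neuron-like cells had 29.3% and 32.1% in control and 36.2% and 41.3% in cKO, above the neural tube neurons in every library.

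**Figure D1:**
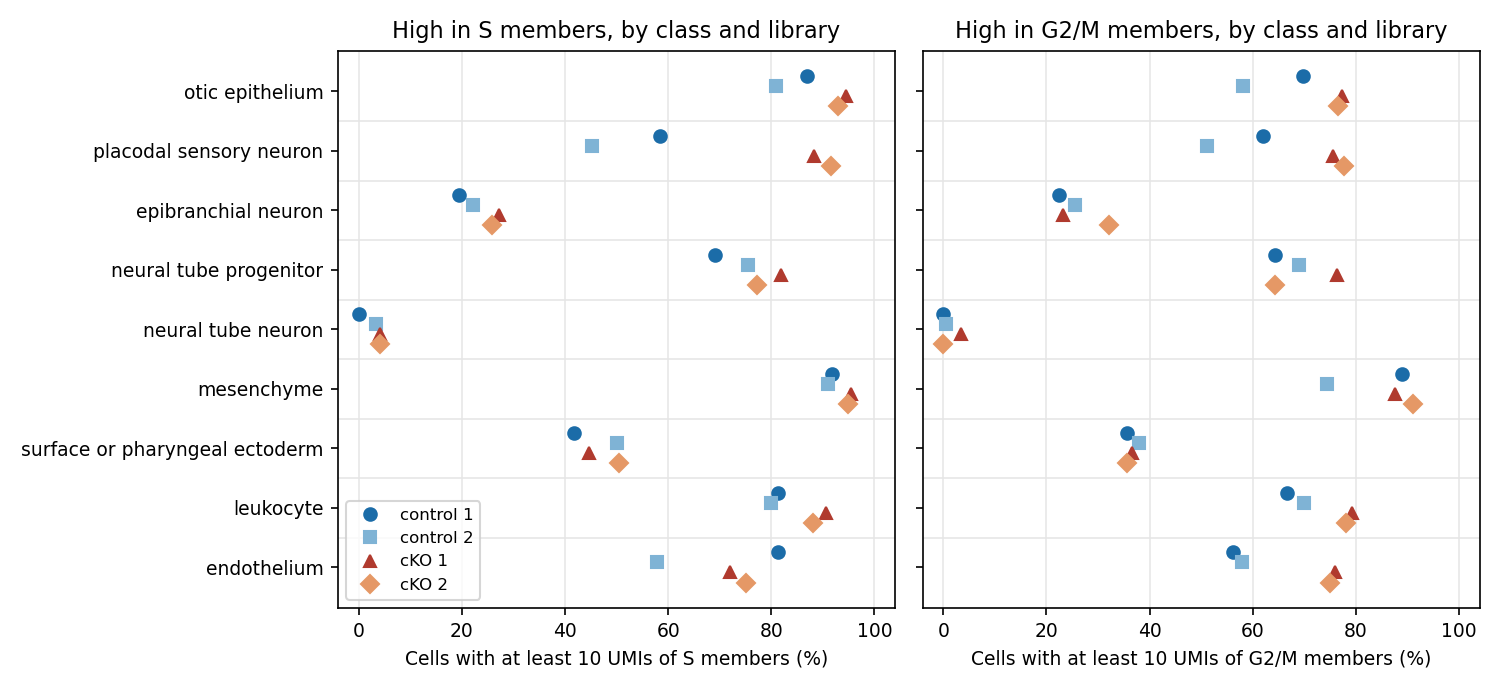
Share of S-high cells (left) and G2/M-high cells (right), in percent of thinned cells, for each cell class. Each point is 1 library, with control and cKO in different colours. Placodal neurons showed the widest gap between genotypes in S-high cells (58.4% and 45.2% against 88.3% and 91.7%), and neural tube neurons stood near 0.

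In otic cells, more cKO cells than control cells passed the S cut. S-high cells were 86.8% and 81.0% of the control 1 and 2 libraries and 94.4% and 92.9% of the cKO 1 and 2 libraries. G2/M-high cells were 69.7% and 58.0% in control and 77.3% and 76.5% in cKO. The genotypes did not overlap in either share, and the control libraries were farther apart from each other than the cKO libraries were. Means were 83.9% ± 4.15 (SD, n = 2) in control and 93.7% ± 1.03 in cKO for S-high, and 63.9% ± 8.28 and 76.9% ± 0.520 for G2/M-high. Without thinning, the means were 84.4% and 95.0% for S-high and 62.9% and 76.9% for G2/M-high. Single shares were not tested, because with 2 libraries a group the smallest p of an exact permutation test (two-sided) is 0.333.

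The level within high cells moved in opposite ways for the 2 sets. S-high otic cells carried 22.0 and 22.1 S UMIs on average in control and 24.5 and 23.3 in cKO. G2/M-high otic cells carried 38.1 and 38.7 G2/M UMIs in control and 30.4 and 34.6 in cKO. Both pairs were apart without overlap, with S higher and G2/M lower in cKO. A mean above a cut is not independent of the share of cells that passes it.

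The mean score of a class can be split into a part from the share of high cells, a part from the level in high cells and a part from the level in the rest, each weighted by the average of the genotypes. For S in otic cells, cKO exceeded control by 3.29 UMIs per cell, of which 1.59 came from the share, 1.68 from the level in high cells and 0.033 from the rest. For G2/M the difference was 0.415 UMIs, the sum of 4.05 from the share, -4.18 from the level in high cells and 0.543 from the rest. The parts from the share and from the level in high cells were of like size and opposite sign. These parts depend on the cut. With a cut of 5 UMIs the S parts were 0.403 from the share, 2.90 from the level in high cells and 0.0075 from the rest. With a cut of 20 they were 2.72, -0.153 and 0.729, and the S level in high cells differed by -0.303 UMIs. The split of the S difference between share and level is therefore not settled. For G2/M a cut of 20 gave 1.47 from the share, -2.65 from the level in high cells and 1.51 from the rest. A cut of 5 gave 4.42, -4.01 and 0.0615.

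**Figure D2:**
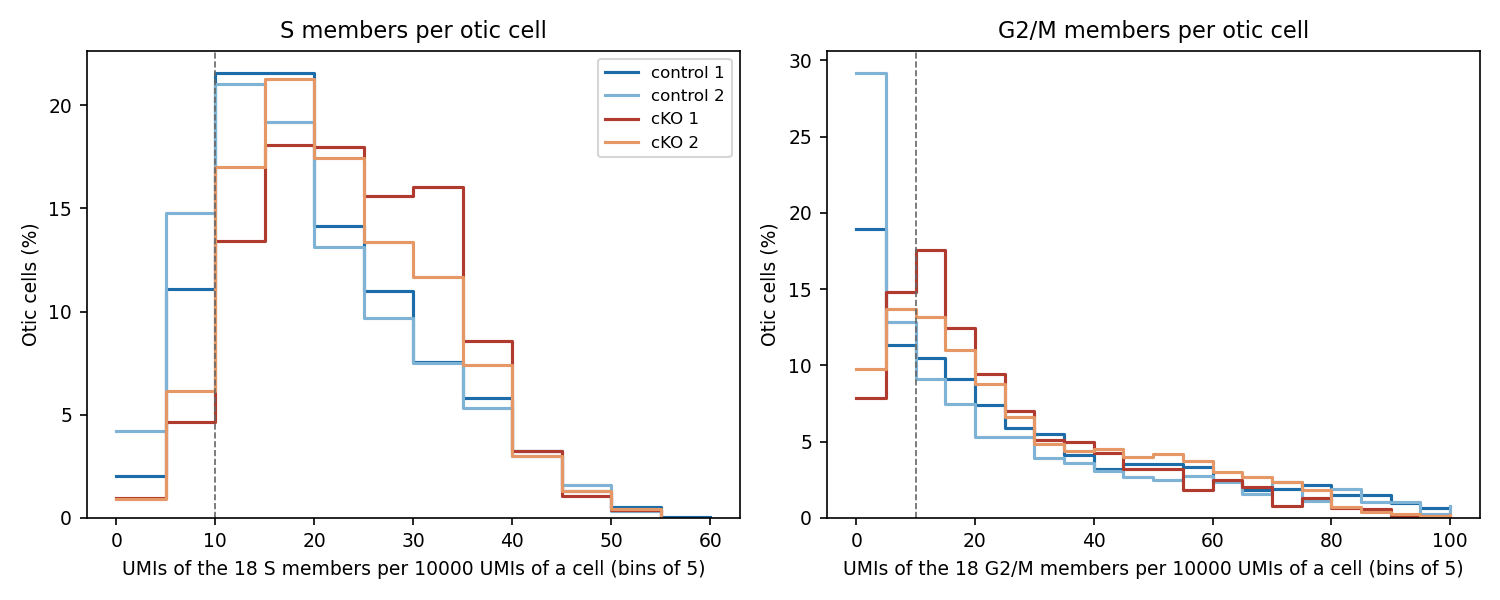
Percent of otic cells (y axis) by their S UMIs (left) and G2/M UMIs (right) in bins of 5 after thinning to 10000 UMIs (x axis), 1 line per library. The last bin holds all cells at 100 or more. The control libraries hold more cells at the low end and, for G2/M, more cells above 80 UMIs.

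Lists that share no gene with the members gave differences of the same sign. They held 51 other replication genes and 60 other mitotic genes, with cuts that called about the same number of cells overall. Otic cells high in the other replication list were 86.7% and 78.6% in control and 96.8% and 95.3% in cKO. In those cells the S members summed to 21.7 and 21.8 UMIs in control and 24.1 and 22.9 in cKO. Cells high in the other mitotic list were 68.4% and 56.9% in control and 83.6% and 80.2% in cKO, and their G2/M members summed to 38.3 and 38.9 UMIs in control and 28.4 and 33.0 in cKO. The genotypes did not overlap in any of these 4 measures. Both lists also differed between genotypes in their own genes, so the cells above their cuts are not matched between genotypes, and these values are no independent support for the levels given with the members' own cuts.

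Most control and cKO otic cells came from different clusters. Clusters 0 and 2 held 48.7% and 39.9% of cKO otic cells and at most 0.0503% of control otic cells each, and clusters 1, 3, 9 and 12 held control cells almost only. Cluster 6 drew on both genotypes and made up 10.9% of the control otic cells and 9.47% of the cKO ones. In cluster 6, S-high cells were 71.1% and 59.1% in control and 69.9% and 68.6% in cKO, so that the genotypes overlapped there. Summed counts of that cluster gave 2 S members that rose and 2 that fell, and 2 G2/M members that rose and 1 that fell (17.9% of genes called, 9.80% higher and 8.07% lower). The largest control cluster, cluster 1, had 92.2% and 88.4% S-high cells, and cluster 0, the largest cKO cluster, had 98.1% and 97.2%.

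Otic cells were also divided by UMIs of single territory genes after thinning. Neurog1, a proneural factor of the neuroblast-forming region, had a UMI in 4.30% and 2.43% of control and 5.61% and 4.90% of cKO otic cells. In mesenchyme-like cells, which should lack it, the share was 0.917% in control 1 and 0 in the other libraries (0 of 145, 243 and 79 cells, which allows up to 2.07%, 1.23% and 3.797%), at median depths of 27665 to 33865 UMIs. Among otic cells with a Neurog1 UMI, 43 to 95 per library, 70.3% and 65.1% were S-high in control and 96.6% and 98.9% in cKO. Among those without one the shares were 87.6% and 81.4% against 94.3% and 92.6%. Otx1 or Otx2, genes of the ventral otic vesicle, had a UMI in 350 and 330 control cells, of which 269 and 240 lay in cluster 9, and in 37 and 29 cKO cells, none of them in that cluster. The cKO 2 share of 1.49% is below the limit that 0 of 79 mesenchyme-like cells allows, so its cells are not read as ventral. The cKO 1 share of 3.52% is above the 1.23% that 0 of 243 such cells allows. As none lay in cluster 9, no S-high share is given for them, and whether cKO 1 holds ventral cells was not tested. Gbx2, a dorsal gene, had a UMI in at least 12.5% of otic cells in each library and in 0 to 1.38% of mesenchyme-like cells. Otic cells with it were 90.0% and 85.6% S-high in control and 92.4% and 90.7% in cKO. Their G2/M-high shares were 67.5% and 53.3% in control and 66.7% and 62.9% in cKO, and the genotypes overlapped. Cells with Sfrp2, a Wnt-binding protein gene, or Sp5, a Wnt target (both led cluster 0), had 87.2% and 84.0% S-high in control and 95.9% and 94.0% in cKO. A UMI of either was in 30.9% and 29.0% of control and 59.6% and 59.7% of cKO otic cells. It was also in 24.8% and 24.1% of control and 25.5% and 21.5% of cKO mesenchyme-like cells, so it does not mark otic cells alone. In leukocyte-like cells it was in 0 of 40 to 53 cells per library. The differences between territories were not tested.

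Counts summed per library and fitted over 15349 genes gave calls for single members in otic cells. Of the 18 S members 12 rose in cKO and 0 fell, and of the 18 G2/M members 8 rose and 2 fell (adjusted p below 0.05, edgeR), while 39.9% of all genes tested were called, 20.7% higher and 19.2% lower. The median log2 change was 0.30 for S members and 0.06 for G2/M members, against -0.02 over all genes.

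Among genes of nucleotide supply, 3 of 4 rose. Rrm2, the small subunit of ribonucleotide reductase, stood at 174 and 149 CPM in control against 307 and 273 in cKO. Its log2 change was 0.84 (SE 0.10, adjusted p = 0.000597), with no overlap. Ung, which removes uracil from DNA, stood at 52.0 and 52.3 CPM in control against 93.3 and 72.3 in cKO (log2 0.66, adjusted p = 0.00275). Tyms, which makes thymidylate, stood at 135 and 134 CPM in control against 188 and 202 in cKO (log2 0.54, adjusted p = 0.00117). The cKO libraries were above both controls in each. Rrm1, the large subunit of the same reductase, stood at 127 and 121 CPM in control against 119 and 124 in cKO, overlapping, with a log2 change of -0.03 (adjusted p = 0.790). Of the reductase's 2 subunits, then, only the small one was called.

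All 3 genes of origin licensing and firing rose. Gins2, a part of the active helicase, stood at 80.2 and 76.9 CPM in control against 117 and 115 in cKO, a log2 change of 0.56 (adjusted p = 0.000665). Cdc6, which loads the MCM ring, changed by 0.28, and Cdc45, which completes the helicase, by 0.32. The clamp gene Pcna stood at 206 and 196 CPM in control against 298 and 266 in cKO (log2 0.49, adjusted p = 0.00262). Control libraries were close together in these genes and below both cKO libraries.

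Of the 6 MCM genes, which encode the ring of the helicase, 3 rose. Mcm4 stood at 111 and 109 CPM in control against 142 and 133 in cKO (log2 0.32, adjusted p = 0.00829). Mcm5 stood at 76.3 and 79.2 against 99.2 and 85.7 CPM (log2 0.25), and Mcm3 at 103 and 102 against 123 and 115 CPM (log2 0.22). None of these overlapped. Mcm2 had 56.8 and 55.5 CPM in control against 60.1 and 55.7 in cKO, Mcm6 had 118 and 115 against 125 and 107, and Mcm7 had 151 and 135 against 171 and 149. Those 3 overlapped between genotypes and did not pass, with log2 changes of 0.04, -0.003 and 0.16.

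Of 4 genes of chromatin and histone supply, 2 rose. Chaf1b, a subunit of the chaperone that places histones on new DNA, stood at 33.0 and 34.7 CPM in control against 58.8 and 52.1 in cKO (log2 0.71, SE 0.08, adjusted p = 0.000525). Slbp, which binds histone mRNA, changed by 0.48 (adjusted p = 0.00293). Uhrf1, which maintains DNA methylation, had 97.0 and 90.5 CPM in control against 107 and 102 in cKO and did not pass (adjusted p = 0.112). Hells, a chromatin remodeller, had 230.0 and 221 CPM in control against 229 and 213 in cKO, overlapping. Gene-to-gene differences in level are not compared here.

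**Figure D3:**
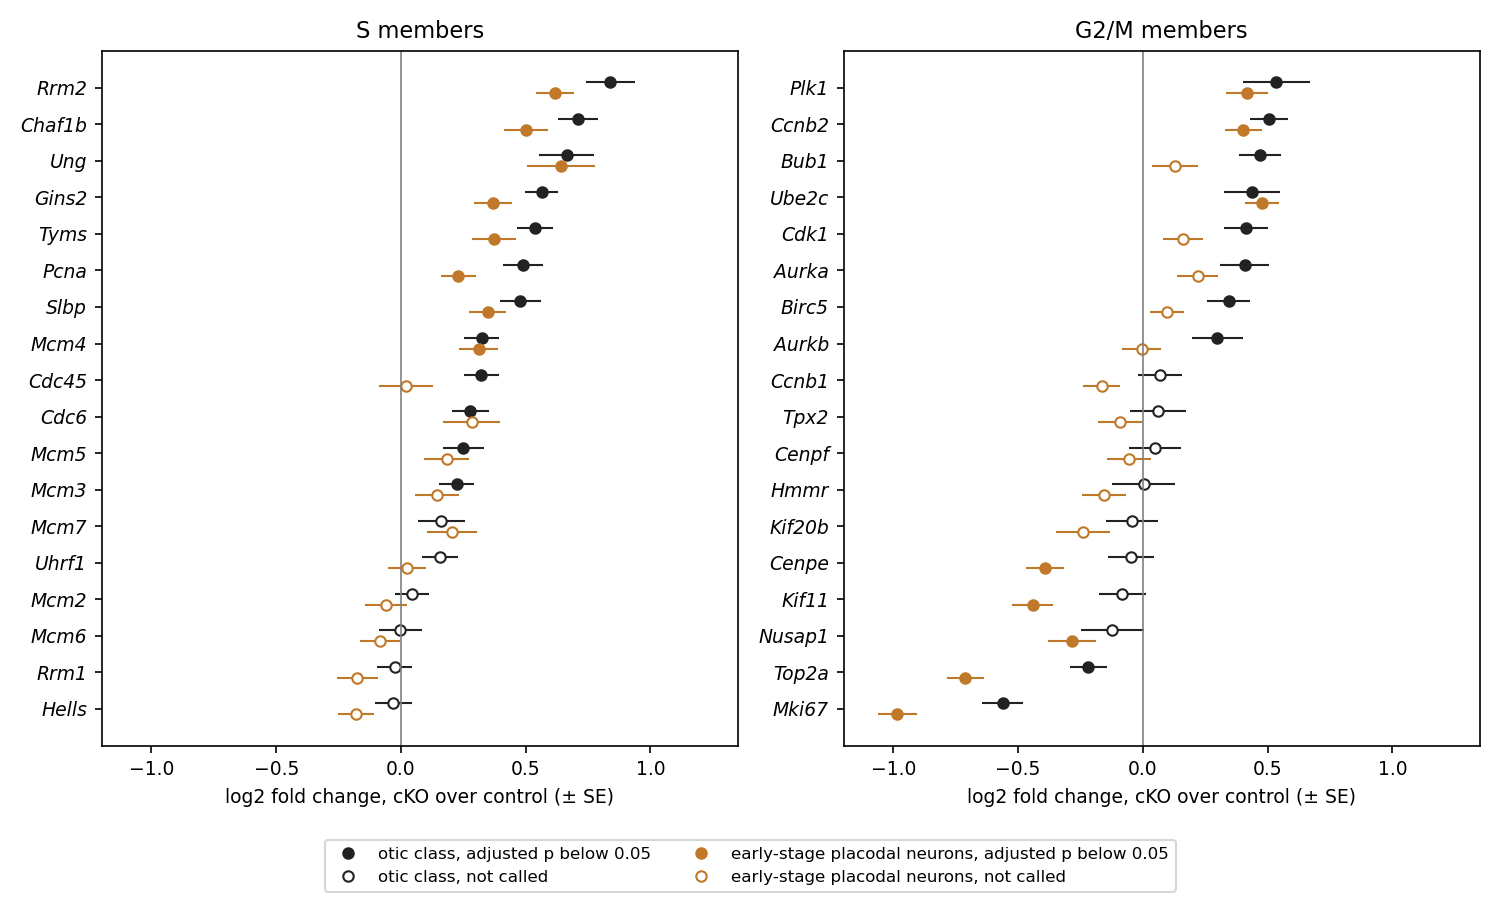
Log2 change of each member, cKO over control (x axis), in otic cells and in early-stage (least mature) placodal neurons, S members left and G2/M members right. Points are edgeR estimates on 2 libraries a group (filled where called, open where not) and bars are 1 standard error, with Mki67 below 0 in both (-0.56 and -0.98) and Rrm2 at 0.84 and 0.62.

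Among the G2/M members, all 4 mitotic kinase and passenger genes rose in otic cells. Plk1, a kinase of mitotic entry and spindle assembly, stood at 66.8 and 52.8 CPM in control against 76.3 and 96.8 in cKO (log2 0.53, SE 0.13, adjusted p = 0.0147). Aurka, the centrosomal kinase, had 58.6 and 48.9 against 67.2 and 75.4 CPM (log2 0.41, adjusted p = 0.0125). Aurkb and Birc5, partners in the chromosomal passenger complex, changed by 0.30 and 0.34. The genotypes did not overlap in any of the 4.

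Cdk1, the mitotic kinase, stood at 157 and 140 CPM in control against 187 and 209 in cKO (log2 0.41, adjusted p = 0.00746). Its partner Ccnb2 had 74.0 and 66.3 against 96.4 and 103 CPM (log2 0.51, adjusted p = 0.00204), while Ccnb1 overlapped and changed by 0.07. Bub1, a checkpoint kinase, had 65.0 and 55.2 against 81.7 and 84.8 CPM (log2 0.47, adjusted p = 0.00402). Of the kinetochore genes Cenpe and Cenpf neither passed. Ube2c, which feeds ubiquitin to the anaphase complex, had 401 and 337 CPM in control against 453 and 547 in cKO (log2 0.44, adjusted p = 0.0157). None of the 5 spindle motor and assembly genes (Kif11, Kif20b, Tpx2, Nusap1 and Hmmr) passed, with log2 changes from -0.12 to 0.06.

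The 2 genes of chromosome structure fell. Mki67, which coats mitotic chromosomes and gives the Ki-67 antigen, stood at 185 and 170 CPM in control against 114 and 126 in cKO, a log2 change of -0.56 (SE 0.08, adjusted p = 0.00159). Top2a, the topoisomerase that untangles sister DNA, had 447 and 414 CPM in control against 357 and 382 in cKO (log2 -0.22, adjusted p = 0.0460). Both were lower in each cKO library than in each control library. The fall of Top2a was not called once the transcript length trend was removed (log2 -0.08, adjusted p = 0.460).

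The level of these genes within G2/M-high otic cells was then set beside that of the other members, a split chosen after the values were seen. Mki67 and Top2a together gave 8.13 and 8.86 UMIs per G2/M-high cell in control and 5.23 and 5.51 in cKO. The other 16 gave 30.0 and 29.8 in control and 25.1 and 29.1 in cKO. Mki67 and Top2a made up 21.3% and 22.9% of G2/M UMIs in control and 17.2% and 16.0% in cKO. With these 16 alone, otic cells at 10 or more UMIs were 63.5% and 51.1% in control and 70.2% and 70.9% in cKO.

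Changes were also counted in otic cells high in the other mitotic list. That list took in a larger share of cKO than of control cells, so this is not a comparison at a matched phase. There 11 S members rose and 0 fell (41.9% of all genes called, 21.7% higher and 20.2% lower), and 2 G2/M members rose and 9 fell. The risers were Ccnb2 (log2 0.29) and Bub1 (log2 0.18), and the fallers included Mki67 (-0.87), Top2a (-0.51), Nusap1 (-0.43), Kif11 (-0.37) and Cenpe (-0.34). In all otic cells 2 of these 9 had been called lower. With the trend of counts on transcript length removed, Ccnb2, Cenpe, Cenpf, Hmmr and Kif20b lost their calls in these cells, which left 1 G2/M member up and 5 down (33.8% of genes called). In cells high in the other replication list 8 S members rose and 0 fell, and 7 G2/M members rose and 3 fell (41.2% of genes called, 21.3% higher and 19.9% lower). In cells high in either list the counts were 8 and 0 for S and 7 and 2 for G2/M (40.9% called, 21.2% higher and 19.7% lower). In cells low in both lists 2 S members rose and 2 fell, and 1 G2/M member rose and 1 fell, with 14.1% of genes called, 7.99% higher and 6.10% lower.

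Length of the transcript moved with the change. Across the 18 G2/M members, Spearman's rho between the longest annotated transcript and the otic log2 change was -0.73, and across the 18 S members it was -0.57. Over all 15342 genes with a length it was -0.26. These are descriptions across genes, which share libraries and are not replicates. The 8 G2/M members that rose had a median longest transcript of 2195 bases, and the 2 that fell had 5221 (Top2a) and 10061 (Mki67). The 8 not called had 2489 to 11130 bases (median 4592). The longest of them, Cenpf, had a log2 change of 0.05. In leukocyte-like cells rho was -0.74 for the G2/M members and -0.39 over all genes, and over 7 classes the G2/M value ran from -0.68 to -0.75. The relation was weaker and less even in the other sets. For the S members rho ran from -0.065 (epibranchial neurons) to -0.57 (otic cells). For 60 other mitotic genes, a list described above, it ran from -0.19 (neural tube progenitors) to -0.48 (otic cells). In the progenitors it was -0.28 over all genes.

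When each library's trend of counts on length was removed before the fit, 18 members were called in otic cells instead of 22, and 17 were called both ways. S members were 11 up and 0 down, and G2/M members 6 up and 1 down, with 33.3% of genes called. Aurka, Aurkb, Cdc45, Top2a and Ube2c lost their calls, and Cenpf gained one. Mki67 moved from -0.56 to -0.31 (adjusted p = 0.0194) and remained called. Mki67 lost its call in the neuron, mesenchyme, leukocyte and ectoderm classes.

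**Figure D4:**
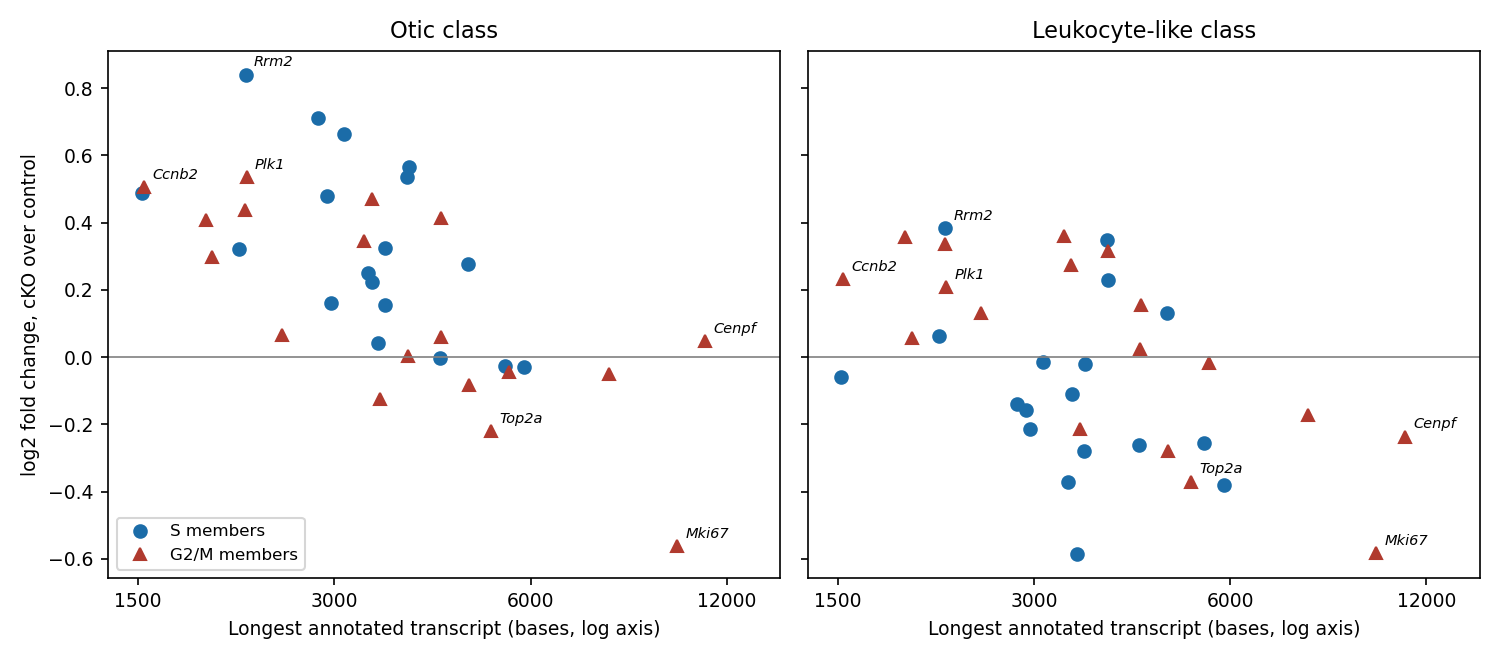
Longest annotated transcript in bases (x axis, log scale) against the log2 change, cKO over control (y axis), for the 36 members in otic cells (left) and leukocyte-like cells (right), S and G2/M in different colours. Long transcripts tend to lie lower, with Mki67 (10061 bases) at -0.56 and -0.58.

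Placodal sensory neurons, the lineage of the cochleovestibular ganglion, had more high cells in cKO. Cycle-gene-high cells were 71.9% and 60.1% in control and 97.2% and 97.4% in cKO. S-high cells were 58.4% and 45.2% against 88.3% and 91.7%, and G2/M-high cells 62.0% and 51.1% against 75.6% and 77.6%. The genotypes did not overlap in any of these shares, and the mean difference in S-high cells was 38.2 points. Most neurons of each genotype came from different clusters. Cluster 7 held 86.5% of cKO and 0.445% of control neurons, while clusters 5, 14 and 19 held 56.3%, 27.4% and 15.9% of control and 9.61%, 2.79% and 1.11% of cKO neurons. The values also depend on which cells are called neurons. With cycle genes kept in the clustering, the differences were 2.98 points in cycle-gene-high, 10.2 in S-high and -4.21 in G2/M-high cells, the last with its direction turned. The control mean of cycle-gene-high cells was then 96.7% in place of 66.0%.

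Here the share made up most of the difference in mean score. For S, the difference of 8.82 UMIs per cell was 7.56 from the share, 0.572 from the level in high cells and 0.685 from the rest. For G2/M, 6.11 UMIs were 7.53 from the share, -2.21 from the level in high cells and 0.790 from the rest. The parts for S depended on the cut here too. A cut of 5 UMIs gave 4.95 from the share, 3.78 from the level in high cells and 0.0968 from the rest. A cut of 20 gave 6.37, -0.696 and 3.08. S-high neurons carried 25.6 and 24.1 S UMIs in control and 26.3 and 25.0 in cKO, overlapping. G2/M-high neurons carried 44.1 and 41.6 G2/M UMIs in control and 38.1 and 41.1 in cKO, just apart.

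All 18 S members rose in placodal neurons and 0 fell, and of the G2/M members 9 rose and 1 fell, with 38.2% of genes called, 18.7% higher and 19.4% lower. With cycle genes kept in the clustering 18 members were called in place of 28 (32.4% of genes called), and the log2 changes of 5 S members (Mcm2, Mcm6, Cdc45, Hells and Rrm1) turned negative. Rrm2 stood at 187 and 138 CPM in control against 366 and 349 in cKO (log2 1.14, adjusted p = 0.000707). Ung, at 33.4 and 25.3 against 81.2 and 58.6 CPM, changed most (log2 1.25, adjusted p = 0.00149). Plk1 had 47.0 and 37.9 against 76.2 and 87.1 CPM (log2 0.94, adjusted p = 0.00112), and Ube2c had 466 and 428 against 766 and 720 CPM (log2 0.73, adjusted p = 0.000417). Control 2 was the lowest library in each of these 4 genes. Mki67 was again the member that fell, from 211 and 164 CPM to 129 and 143 (log2 -0.47, adjusted p = 0.0198). With the length trend removed 29 members were called (33.6% of genes), Mki67 not among them.

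The response was tested for a difference between the neuron and otic classes with the library as a block. Neuron stages, whose mix differed between genotypes (next paragraph), were pooled in this fit. The neuron response was higher for 16 S members and 13 G2/M members and lower for 0, with 17.4% of genes called, 9.17% higher and 8.19% lower. Cdc6 (difference 0.70 on the log2 scale), Ung (0.62), Mcm3 (0.56), Plk1 (0.44) and Cenpf (0.43) were among them. For Mki67 and Top2a the differences of 0.14 and 0.13 did not pass (adjusted p = 0.314 and 0.398). The count fell to 13 without control 2.

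Cell stage differed between the genotypes' neurons. Neurons were divided by the share of maturing-neuron transcripts among their stage genes into early, middle and late cells, with cuts at 33.3% and 66.7%. The control libraries held 345 and 302 early, 149 and 228 middle and 119 and 174 late neurons. The cKO libraries held 279 and 342 early but only 30 and 32 middle and 7 and 10 late. Early neurons were 84.6% and 81.1% S-high in control and 93.2% and 96.2% in cKO. Middle neurons were 40.3% and 30.3% against 60.0% and 71.9%. Late neurons were 5.04% and 2.30% against 14.3% and 0 of 10 cells, which allows a share of up to 30.0%. S-high shares were lower in middle than in early neurons, and lower again in late neurons, in all 4 libraries. Late neurons high in either set were 13.4% and 8.62% in control, 57.1% of 7 cells in cKO 1 and 10.0% of 10 cells in cKO 2.

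**Figure D5:**
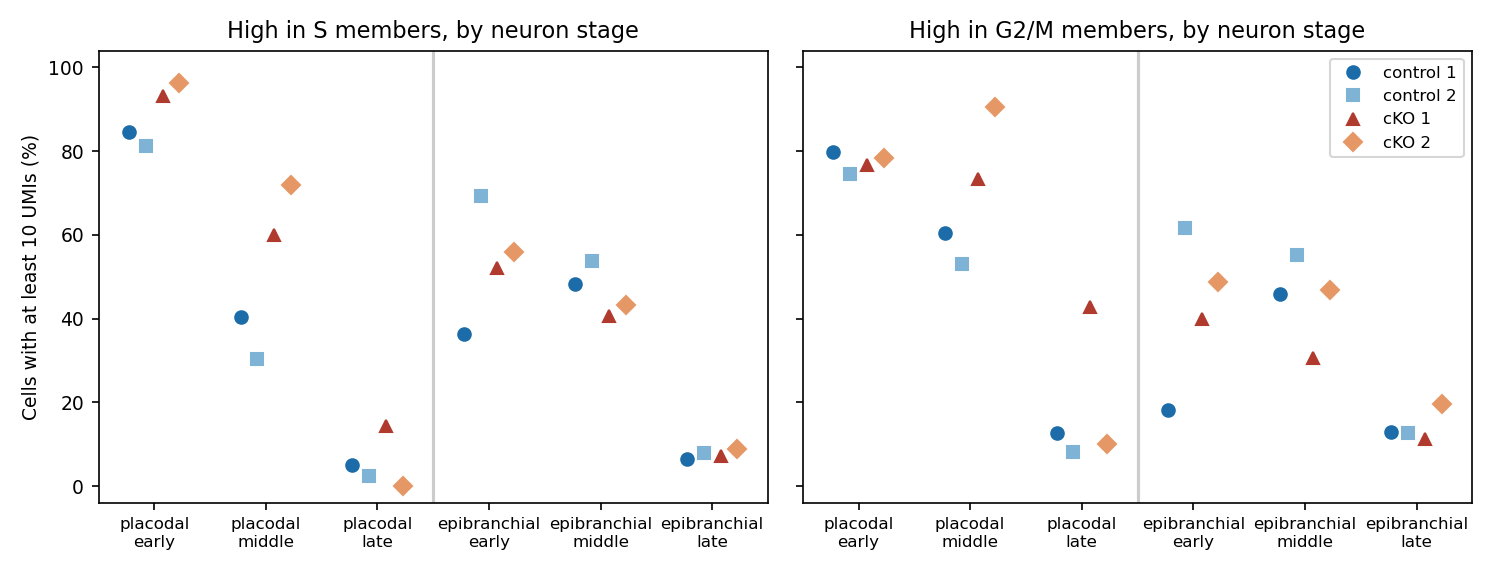
Share of S-high (left) and G2/M-high (right) cells, in percent, in early, middle and late cells of placodal and epibranchial neurons, 1 point per library. Control and cKO do not overlap in S-high share in early and middle placodal neurons, and the late placodal cKO points rest on 7 and 10 cells.

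Within early neurons the S and G2/M sets differed in their counts. Here too clusters differed: 96.5% of early cKO neurons lay in cluster 7, and 63.1% and 32.9% of early control neurons in clusters 5 and 19. Of the S members 8 rose and 0 fell, and of the G2/M members 3 rose and 5 fell, with 30.4% of genes called, 15.6% higher and 14.8% lower. Rrm2 rose by 0.62 and Ung by 0.64 on the log2 scale. Ccnb2, Plk1 and Ube2c rose by 0.40, 0.42 and 0.48. Mki67 fell from 263 and 256 CPM to 125 and 137 (log2 -0.98, adjusted p = 3.57e-05), and Top2a from 731 and 701 to 411 and 462 (log2 -0.71, adjusted p = 0.000180). Cenpe, Kif11 and Nusap1 fell by 0.39, 0.44 and 0.29. With the length trend removed, Ccnb2, Cenpe, Nusap1 and Pcna lost their calls and Ccnb1, Cdc6, Cdk1 and Cenpf gained one, which left 4 G2/M members up and 4 down (22.4% of genes called). In early neurons G2/M-high cells were 79.7% and 74.5% in control and 76.7% and 78.4% in cKO, and the genotypes overlapped.

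In middle neurons 2 S members (Tyms and Rrm2) and 8 G2/M members rose and 0 fell, with 1.96% of genes called, 1.07% higher and 0.895% lower. Plk1 rose by 1.32 (adjusted p = 0.00915) and Bub1 by 0.99 (adjusted p = 0.0143). These values rest on 30 and 32 cKO cells, those deep enough to be thinned. The count was 22 without control 1 and 20 without cKO 1. In neuron cluster 5, which held 331 and 428 control but only 42 and 27 cKO cells, 0 S members rose and 3 fell, and 2 G2/M members rose and 0 fell (1.77% called, 0.871% higher and 0.898% lower).

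Epibranchial neurons, the visceral sensory neurons of neighbouring placodes, had 19.4% and 22.1% S-high cells in control and 27.2% and 25.8% in cKO. By edgeR 6 S and 8 G2/M members rose and 0 fell, with 24.9% of genes called, 12.0% higher and 12.9% lower. Plk1 (log2 0.97), Ung (0.97) and Mcm4 (0.93) changed most. Without control 1 the count was 0, without control 2 it was 5, and thinned cells gave 6. With the length trend removed it was 11 (18.4% of genes called): Ung, Aurka, Aurkb, Mcm7 and Ube2c lost their calls, and Cenpf and Rrm1 gained one. The genotypes also differed in the mix of clusters: cluster 10 held 36.5% of control and 65.4% of cKO epibranchial cells, and cluster 11 the rest. Thinned cells of cluster 10 were 24 early, 149 middle and 33 late in control and 68, 214 and 93 in cKO. Cluster 11 held late cells almost only. Within cluster 10, 3 S members (Cdc45, Uhrf1 and Hells) and 2 G2/M members (Mki67 and Top2a) fell and 0 rose (7.91% called, 3.77% higher and 4.14% lower). Within cluster 11 edgeR called 0 of the 17 S and 18 G2/M members tested at an adjusted p below 0.05 (3 at an unadjusted p below 0.05), with 11.3% of genes called, 5.67% higher and 5.61% lower. No member was called higher within either cluster. By stage, middle epibranchial neurons were 48.2% and 53.7% S-high in control and 40.6% and 43.4% in cKO, lower in each cKO library. Late ones were 6.50% and 7.85% against 7.14% and 8.81%, overlapping. Early ones, with 11 to 43 cells per library, were 36.4% and 69.2% against 52.0% and 55.8%, with the control libraries on either side of the cKO pair.

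The scores also differed by genotype in classes outside the otic and neuron lineages. In leukocyte-like cells S-high cells were 81.2% and 80.0% in control and 90.6% and 88.0% in cKO, and G2/M-high cells 66.7% and 70.0% against 79.2% and 78.0%, on 40 to 53 cells per library. The genotypes did not overlap there either. Summed counts gave 1 called member in that class, Mki67, which fell from 451 and 413 CPM to 316 and 260 (log2 -0.58, adjusted p = 0.0385), with 2.97% of genes called, 1.24% higher and 1.73% lower. In mesenchyme 3 S members (Rrm2, Ung and Slbp) rose and Mki67 and Top2a fell (5.34% called, 2.77% higher and 2.57% lower). In ectoderm Mki67 fell alone (log2 -0.65, adjusted p = 0.00849, 6.53% called, 3.32% higher and 3.20% lower). Endothelium-like cells had 1 riser, Hmmr (0.703% called, 0.323% higher and 0.380% lower), neural tube progenitors 1, Plk1 (1.15% called, 0.510% higher and 0.642% lower), and neural tube neurons 0 by edgeR (5 at an unadjusted p below 0.05, 0.199% called, 0.0993% in each direction). These classes held fewer cells than the otic class.

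Over all kept cells together 12 S members rose and 0 fell, and 7 G2/M members rose and 1 fell, with 27.0% of genes called, 14.7% higher and 12.3% lower. Only 4 members were called without control 2 and 10 without cKO 2. With the length trend removed 15 were called (17.7% of genes), and Aurka, Cdc45, Mki67, Plk1 and Ube2c lost their calls. Such sums mix the share of each cell class with the level in it, which cannot be told apart there.

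The wider cycle lists were counted in the same fit of otic cells. Of 51 other replication genes 32 rose and 0 fell, against 20.7% of all genes higher and 19.2% lower, with a median log2 change of 0.29. Dut, which clears dUTP, rose from 471 and 420 CPM to 756 and 757 (log2 0.76), Tipin, a fork protection factor, rose by 0.69 and Rpa2, a subunit of the single-strand binding complex, by 0.66. Of 60 other mitotic genes 22 rose and 1 fell, against the same background, with a median of 0.18. Spc24 of the kinetochore rose by 0.73, Fbxo5, an inhibitor of the anaphase complex, by 0.58 and Cdca3 by 0.54, and the phosphatase gene Cdc25b fell by 0.50, from 6.65 and 7.51 to 4.86 and 5.09 CPM. These lists were drawn up with earlier results of these data known.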

How the data were processed

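The deposited files hold raw UMI counts per gene and cell barcode, with no normalization. Cell Ranger 6.0.1 made them, per the file headers. Cell Ranger 3.1.0, FastQC 0.11.4, Seurat 4.1.0 and mm10 appear in the submitters' processing notes. Cells with at least 1000 genes and at most 10% mitochondrial UMIs were kept. Scrublet's automatic threshold called 0 to 3 cells per library, so the top-scoring cells, at 0.8% per 1000 barcodes, were removed as doublets. Clustering used scanpy 1.11.5 and leidenalg 0.10.2 (2000 variable genes, 30 components, 20 neighbours, resolution 1, giving 26 clusters). The 247 cycle and histone genes left out of it include Brip1. Each cluster was named for the class with most markers at 10 CPM or more and 2 times the median cluster, at least 3 and 40% of its list. This rule was settled after clusters had been seen. Counts were summed per library and class (at least 20 cells in each library) and compared with edgeR 4.0.16 in R 4.3.3 (TMM factors, quasi-likelihood test, two-sided, Benjamini-Hochberg over all genes tested). CPM values are scaled by TMM factors. The fit was tested on simulated data for the otic class (15131 genes, 200 changed), where it recovered 20% of changes of 0.3 and 100% of changes of 1 on the log2 scale. Transcript lengths and gene starts come from GENCODE on mm10.

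Members with the largest otic changes (up to 6 per set and direction), Mki67, Top2a, Pcna and the MCM genes were given per library, and from the wider lists the 3 with the largest changes in each direction. The members and lists were chosen with earlier results of these data known. Same-numbered libraries did not deviate together (correlation 0.037 in otic cells), and the labels state no pairing. In bulk-like sums, fewer cells of a type and less RNA per cell cannot be told apart. Intervals from a count of 0 use 3 counts and cover counting error only.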

Additional observations from a re-analysis of the deposited data

Results flagged for a closer look

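The genotype response was higher in placodal neurons than in otic cells for 16 S members and 13 G2/M members. This was a test of the difference itself in edgeR with the library as a block. Of all genes tested 17.4% were called, 9.17% higher and 8.19% lower. The neurons' mix of stages differed between genotypes and was not held fixed, so this is not a comparison at a matched stage.

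In placodal neurons the mean G2/M score per cell differed by -3.58 UMIs (cKO minus control) at the early stage and by 14.98 UMIs at the middle stage, with every library of a genotype on the same side. The middle stage rests on 30 and 32 cKO cells, and the difference between stages was not tested. In epibranchial neurons the mean S score differed by -2.78 UMIs at the middle stage and by 0.449 UMIs at the late stage, also not tested against each other. In neuron cluster 5 the mean S score differed by -4.70 UMIs and in cluster 14 by 3.82 UMIs, the latter on 5 and 15 cKO cells, and this difference was not tested.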

How the results depend on the processing

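The otic count of 22 changed members was 16 to 19 when 1 library was left out, and the count in otic cells high in either list (17) was 14 to 18. The corresponding ranges were 13 to 18 in cells high in the other replication list, 16 to 21 in cells high in the other mitotic list, 0 to 6 in cells low in both and 1 to 15 in cluster 6. They were 23 to 35 in placodal neurons, 13 to 18 in early and 8 to 22 in middle neurons, 1 to 4 in cluster 5, 13 to 33 for the difference of neuron and otic responses, 0 to 20 in epibranchial neurons, 1 to 15 in cluster 10, 0 to 14 in cluster 11 and 4 to 19 over all kept cells. They were 0 to 4 in endothelium, 0 to 3 in leukocytes, 0 to 5 in mesenchyme, 0 to 17 in neural tube neurons, 0 to 1 in neural tube progenitors and 0 to 9 in ectoderm. Left-out libraries moved the otic difference in cycle-gene-high cells (main 7.33 points) between 4.02 and 10.6, in S-high cells (9.75) between 6.82 and 12.7, in G2/M-high cells (13.0) between 7.19 and 18.9, in S level (1.89 UMIs) between 1.29 and 2.49 and in G2/M level between -8.04 and -3.83. In neurons the same 5 ran from 25.3 to 37.2, 31.6 to 44.8, 14.6 to 25.5, 0.0442 to 1.57 and -4.82 to -1.81. In a left-out fit the lone library is assumed to vary like the other group. The share of all genes called can differ between fits and is not given for these ranges, so they are not read as changes in the members alone.

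Keeping cycle genes in the clustering changed which cells were called placodal neurons. A cluster of 651 cells led by Epha5 and Pou4f1, 2 genes that also led cluster 14, was then left unnamed. Cycle-gene-high cells of the class averaged 96.7% instead of 66.0% in control and 99.6% instead of 97.3% in cKO. It gave 18 changed members instead of 28, differences of 2.98 points in cycle-gene-high and 10.2 points in S-high cells, -4.21 points in G2/M-high cells (reversed) and -5.67 UMIs in G2/M level. The log2 changes of 11 members then turned negative: Mcm2 -0.043, Mcm6 -0.071, Cdc45 -0.04, Hells -0.17, Rrm1 -0.16, Ccnb1 -0.24, Cenpe -0.44, Cenpf -0.12, Aurkb -0.035, Kif11 -0.47 and Nusap1 -0.33. With a cut of 5 UMIs the otic differences were 1.92 points in cycle-gene-high cells, 2.19 in S-high cells and 2.96 UMIs in S level, and the neuron differences 20.5, 26.1 and 4.43. With a cut of 20 the otic differences were 16.7 points, 16.6 points, 4.02 points in G2/M-high cells and -0.303 UMIs in S level (reversed), and in neurons 28.5 points in S-high, 13.95 points in G2/M-high cells and -1.58 UMIs in S level (reversed). Thinning to 5000 UMIs gave 0.989 and -2.72 UMIs for the otic S and G2/M levels. The other lists gave 10.96 points and scanpy's scores 16.1 points in otic cycle-gene-high cells. In epibranchial neurons 22 members changed with no filter on low counts and 6 in thinned cells, and in otic cells low in both lists 1 in thinned cells. With the length trend removed, an alternative chosen after seeing the data, counts were 0 in leukocytes, 0 in neural tube progenitors, 0 in ectoderm, 2 in mesenchyme, 3 in cluster 5 and 3 in cluster 10. Removing the length trend does not test length as a cause, and the causes of these shifts were not tested. The share of all genes called can differ between fits and is not given beside the counts in this paragraph. A change in count is therefore not read as one in the members alone. With the replicate number as a block, counts were 22 in otic cells, 25 in neurons, 19 in epibranchial neurons and 19 over all cells. Same-numbered libraries correlated at 0.037, 0.0011, 0.032 and -0.038 in those sets. These values show no sign of pairing by number but, with 2 libraries a group, cannot exclude it. With Brip1 kept in the clustering, also chosen after seeing the data, counts stayed at 22 in otic cells, 28 in neurons and 14 in epibranchial neurons. Of 1080 alternatives for single members, 983 kept direction and side of the threshold. The counts of changed members were less stable: of 148 alternatives 97 stayed the same, 44 moved and 7 reversed. Shares stayed the same in 56 of 70 alternatives, with 13 moved and 1 reversed. Levels did so in 37 of 44, with 5 moved and 2 reversed.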
